A study of Mus musculus with 60 samples.

Results

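The effect of a fattening diet on the male liver was measured after 40 weeks of feeding, in 10 of the 60 liver libraries of a mouse series. The 10 were taken by their labels: male animals at 40 weeks, 5 on the HF/HS diet, high in fat and sucrose (animals 512, 513, 521, 522 and 523) and 5 on the control diet (animals 492, 493, 501, 502 and 503). All were mice of CC042/GeniUnc, an inbred strain of the Collaborative Cross, a panel bred from founder strains of different origin. The HF/HS diet drew much of its energy from milk fat, was rich in sucrose and contained cholesterol, whereas the control diet was matched to it in ingredients but low in fat and reduced in sucrose. The whole series holds 12 groups of 5, both sexes on both diets at 20, 40 and 60 weeks, and total RNA depleted of ribosomal RNA was sequenced from each liver. The age at the start of feeding is not stated in the labels. Each label carries its own animal number, but nothing further says how the animals were housed or handled, so p-values measure the spread between these libraries.

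A liver that receives more fat and sugar than it burns stores triglyceride in hepatocyte lipid droplets, and its resident and recruited macrophages, stellate cells and bile duct cells respond when this persists. Stellate cells are the main source of fibrous collagen in an injured liver, and macrophages that take up lipid carry a known set of markers such as Trem2 and Gpnmb. Healthy hepatocytes also differ between the sexes, because pulsed growth hormone in males and steadier growth hormone in females set many cytochrome P450, sulfotransferase and urinary protein genes. The comparison answers what the diet had done to these programmes in males midway through the series, and whether that differed from its effect in males at 20 and 60 weeks and in females at 40 weeks.

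The 10 libraries held 13185884 to 17505297 counts. Pearson's r over log2 levels was 0.989 to 0.994 between libraries of a diet and 0.968 to 0.980 across the diets, and no pair within a diet was as close as sampling noise alone would make it (lowest chi-square over its degrees of freedom 3.29). On the first principal component, with 64.7% of the variance, controls lay between -43.9 and -24.7 and HF/HS livers between 32.2 and 40.2. Xist and the Y-linked genes examined matched the labelled sex in all 10. Hepatocyte markers were abundant in all livers, as the labelled tissue requires. The 13 tested pancreas markers (14 listed) summed to 78.4 CPM (counts scaled to library size after TMM adjustment) in control 502, the highest of the controls. The lowest control sum was 20.2 CPM, and the sums were 8.76 to 11.4 CPM on the HF/HS diet. In what follows, values of single libraries are CPM in the order of the animal numbers above, and effects are log2 fold changes of HF/HS minus control ± standard error from an edgeR model, with 5 livers against 5. A gene was called, and is said to have risen or fallen, where its p, adjusted by Benjamini-Hochberg across the 14180 genes tested, was under 0.05.

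Of the 14180 genes, 3006 rose (21.2%) and 2156 fell (15.2%) on the HF/HS diet, 36.4% in all. In size, 1420 genes rose at least 2-fold and 128 fell at least 2-fold. In 33.7% of the genes the ranges of the diets did not overlap, with the HF/HS range above in 18.7% and below in 15.0%. The balance of rises and falls was not stable, and 58.2% of calls higher was the largest share over the alternatives run. RLE size factors gave 2848 rises and 2579 falls (52.5% of calls higher), and removal of small RNA genes before scaling gave 2734 and 2955 (48.1%), with the median of all genes at -0.04 in place of 0.00. Leaving out any 1 of the 10 libraries gave 48.7% (2538 and 2674, without control 492) to 49.8% (2613 and 2632, without HF/HS 513).

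Among the lowest p-values was that of Ddah1, which encodes an enzyme that breaks down asymmetric dimethylarginine, an inhibitor of nitric oxide synthase (chr3:145758675-145894277, plus strand, mm10). Its control levels were 40.8, 26.5, 49.8, 28.9 and 26.3 CPM and its HF/HS levels 220, 223, 215, 222 and 224 CPM, a rise of 2.68 ± 0.28 (adjusted p = 4.12e-09). All HF/HS livers lay close together and far above the highest control. Limk1, a kinase that acts on actin through cofilin, rose from 4.21 to 6.20 CPM in controls to 18.4 to 25.4 CPM (2.10 ± 0.22). The actin-binding Tmsb10 rose by 1.84 ± 0.21, and Cavin2, a coat protein of caveolae, by a smaller but even step of 0.98 ± 0.10. The groups did not overlap for any of these, which the rule for naming the lowest p-values required.

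Some genes rose from low control levels. Themis, best known as a regulator of T cell selection in the thymus, was at 3.65, 2.78, 4.13, 3.13 and 5.14 CPM in controls and at 35.4, 39.5, 34.4, 32.4 and 39.2 CPM on the diet (3.26 ± 0.43, adjusted p = 1.68e-07). Its HF/HS livers were uniform and well clear of the controls. Lck, a T cell kinase, was at 0.146 to 0.406 CPM in controls and at 0.676 to 1.53 CPM on the diet, and Cd3e, part of the T cell receptor complex, rose (1.96 ± 0.57, adjusted p = 0.00588) although its ranges overlapped. Osbpl3, a lipid-binding protein of the oxysterol-binding family, rose from 9.0 to 13.9 CPM to 97.7 to 128 CPM (3.32 ± 0.49). Muc13, an epithelial transmembrane mucin, was at 0.812 to 1.2 CPM and then at 6.49 to 13.9 CPM (3.49 ± 0.67). Ubd, an inflammation-induced ubiquitin-like modifier, read 24.1 CPM in HF/HS animal 512 and 6.71 to 9.79 CPM in the others on the diet, all above the control maximum of 1.15 CPM.

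Among the falls was Tiam1, which activates the GTPase Rac (chr16:89787111-90143769, minus strand, mm10). It stood at 69.9, 80.2, 60.4, 50.6 and 80.3 CPM in controls and at 15.7, 11.6, 11.5, 10.2 and 12.1 CPM on the diet (-2.48 ± 0.29, adjusted p = 3.19e-08). Every HF/HS liver was far below every control. Moxd1, a monooxygenase related to dopamine beta-hydroxylase, fell from 245 to 627 CPM down to 24.1 to 37.8 CPM (-3.71 ± 0.94). The adhesion receptor Adgrf1 (-2.74 ± 0.49), the sulfotransferase Sult5a1 (-2.79 ± 0.55) and the transporter-like Slc35f1 (-3.43 ± 0.69) fell. E2f7, a repressor of the E2F family that acts in hepatocyte polyploidy, fell too (-2.50 ± 0.46). The diets did not overlap for any of them, which the rule for naming the largest changes required.

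**Figure D1:**
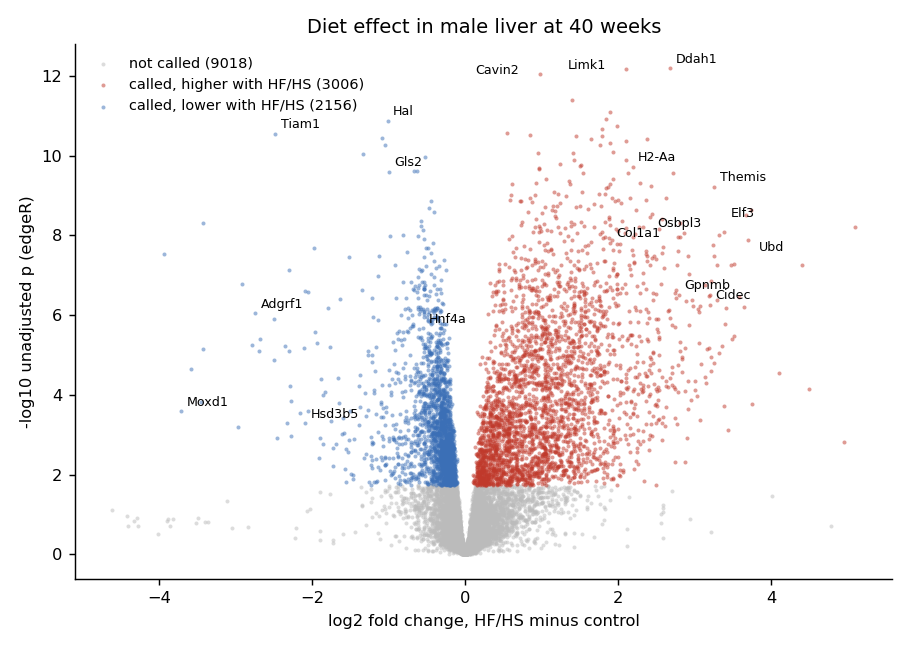
Each point is 1 of the 14180 genes tested. The horizontal axis is the log2 fold change of HF/HS minus control in males at 40 weeks and the vertical axis is -log10 of the unadjusted edgeR p. Red points are the 3006 genes that rose and blue points the 2156 that fell, and the red side reaches further from 0 than the blue side.

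Genes of hepatocyte amino acid metabolism fell. Of 31 urea cycle and amino acid breakdown genes, 26 fell and 0 rose, with a median of -0.53 against 0.00 over all genes. Hal, which begins histidine breakdown, read 403, 404, 400, 379 and 438 CPM in controls and 235, 223, 182, 169 and 195 CPM on the diet (-1.01 ± 0.12, adjusted p = 2.70e-08). The diets did not overlap, and the controls were the tighter group. Gls2, the liver glutaminase, fell from 307 to 315 CPM to 130 to 174 CPM (-0.99 ± 0.13). Also lower were Got1, an aspartate aminotransferase (-1.14 ± 0.18), Sds, serine dehydratase (-1.20 ± 0.22), and Cps1, the mitochondrial entry enzyme of the urea cycle (-0.68 ± 0.13). In the same list falls were called for 21 members in males at 20 weeks (14.5% of all genes fell there), 27 at 60 weeks (12.5%) and 13 in females at 40 weeks (13.3%). By a test of the difference, 1 member differed between the sexes (3.77% of all genes did). One-carbon metabolism, which moves methyl groups between folate and methionine, had 11 of 20 genes lower and 0 higher.

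Hepatocyte markers moved with them. Of 19 markers, 11 fell and 1 rose, and their sum was 64846 to 71213 CPM in controls and 58338 to 62470 CPM on the diet. Counted among the falls was Ass1, with means of only 1.90 CPM in controls and 1.16 CPM on the diet (adjusted p = 0.0493). That level is low for a hepatocyte marker, and the part of the counting method in it was not tested. In bulk tissue, fewer cells of a type and less RNA per cell cannot be told apart, and the part of a changed cell mixture in these results was not tested. Albumin itself moved little, at 11320 to 13220 CPM in controls and 10901 to 12870 CPM on the diet (-0.09 ± 0.08, adjusted p = 0.433). Genes of periportal hepatocytes, the cells nearest the incoming blood that carry out most urea synthesis, had 12 of 19 lower and 1 higher (median -0.37). Pericentral genes had 3 of 19 lower (15.8%, near the 15.2% of all genes) and 1 higher (5.26%, against 21.2%), with a median of -0.11. The 2 zones were not tested against each other.

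Transcription factors that maintain hepatocyte identity went the same way, with 9 of 19 lower and 0 higher. Hnf4a, the central one, was at 1252, 1207, 1118, 1164 and 1075 CPM in controls and at 838, 782, 784, 791 and 788 CPM on the diet (-0.55 ± 0.10, adjusted p = 4.13e-05). The drop was modest in size, but no HF/HS liver reached the lowest control. Foxa3, a forkhead factor of hepatocytes, fell by 0.57 ± 0.16 on the log2 scale. Secreted defence and clotting proteins followed: 19 of 31 complement and coagulation genes fell and 3 rose. C8b, a part of the membrane attack complex, fell from 231 to 321 CPM to 74.0 to 111 CPM (-1.58 ± 0.45). Complement C1qa, which macrophages make, rose instead, by 1.13 ± 0.25.

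Genes that release glucose in the fasted state fell. G6pc, whose enzyme releases free glucose, fell from 292, 302, 320, 270 and 338 CPM to 115, 104, 116, 145 and 149 CPM (-1.27 ± 0.32, adjusted p = 0.00162). Each HF/HS liver had well under the lowest control level. Pck1, the first committed step of gluconeogenesis, fell by 1.08 ± 0.24 on the log2 scale. The liver pyruvate kinase Pklr, which belongs to glycolysis and not to glucose release, also fell, by 0.66 ± 0.18. Forms of glycolytic enzymes that hepatocytes normally lack rose, with hexokinase 2 (Hk2) at 1.95 to 3.01 CPM in controls and 4.53 to 8.85 CPM on the diet (1.46 ± 0.39), and muscle-type pyruvate kinase Pkm 1.17 ± 0.27 higher. In all, 9 of 24 glucose and glycogen genes fell and 4 rose. The counts were the same in males at 60 weeks (12.5% of all genes fell there), and 8 fell and 2 rose in females at 40 weeks (13.3% of all genes fell there). In males at 20 weeks, by contrast, 0 fell and 5 rose (14.3% of all genes rose there). By the test of the difference, 5 of the 24 differed between 20 and 40 weeks (2.17% of all genes) and 0 between 40 and 60 weeks (0.162%).

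**Figure D2:**
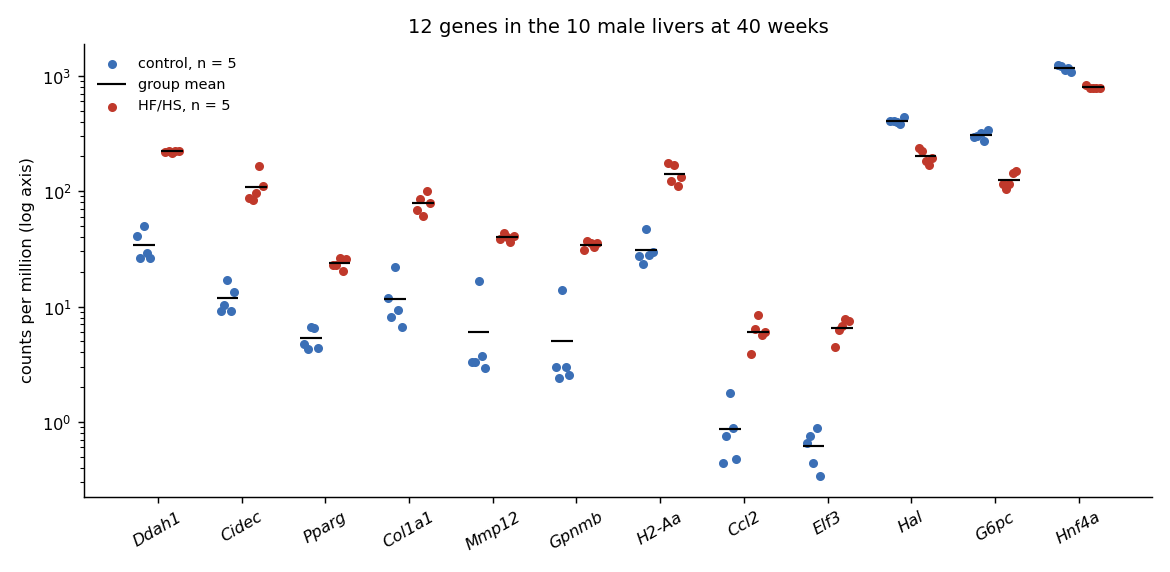
CPM of 12 genes on a log axis in the 5 control livers (blue) and the 5 HF/HS livers (red), with a black line at each group mean. The ranges separate for all 12, and the animal that lies highest among the controls for Mmp12 (16.7 CPM) and Gpnmb (14 CPM) is control 501.

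Lipid storage genes separated into a few strong responders and many that did not pass the test. Of 21 lipid droplet genes 7 rose and 1 fell. Cidec, which fuses small droplets into large ones, was at 9.12, 10.4, 17, 9.14 and 13.3 CPM in controls and at 86.6, 83.5, 95.8, 165 and 110 CPM on the diet (3.20 ± 0.56, adjusted p = 1.58e-05). Even the lowest HF/HS liver was several times above the highest control. Its relative Cidea rose by 3.14 ± 0.69, the droplet coat protein Plin4 by 2.10 ± 0.46, and Mogat1, which makes diacylglycerol, by 1.88 ± 0.50. Plin2, the commonest hepatocyte droplet coat protein, overlapped between the diets (0.01 ± 0.14, adjusted p = 0.952).

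Pparg, a fat-storage transcription factor that normal hepatocytes hold low, read 4.74, 4.28, 6.71, 6.55 and 4.33 CPM and then 22.7, 23.1, 26.3, 20.4 and 25.8 CPM (2.15 ± 0.29, adjusted p = 2.55e-07). The diets were clearly apart. Of 17 fatty acid uptake and activation genes 5 rose (29.4%) and 3 fell (17.6%), against 21.2% and 15.2% of all genes (median 0.07). Without control 493 or 501, 5 fell, and up to 6 fell under other alternatives. The 17 genes summed to 6181 to 7402 CPM in controls and 5428 to 5977 CPM on the diet. Cd36, a fatty acid translocase, rose by 1.37 ± 0.27 and Lpl, lipoprotein lipase, by 1.94 ± 0.29. Of 24 fatty acid and triglyceride synthesis genes 3 rose (12.5%) and 5 fell (20.8%), with a median of -0.14. Fasn, fatty acid synthase (0.36 ± 0.37, adjusted p = 0.470), Scd1, the main liver desaturase (0.08 ± 0.17, adjusted p = 0.763), and their regulator Srebf1 (0.40 ± 0.23, adjusted p = 0.166) did not pass the test. Srebf1 did pass in limma voom with quality weights (adjusted p = 0.00696) and with only these 10 libraries in the fit. The desaturase Scd2 rose from 14.3 to 21.0 CPM to 43.2 to 83.8 CPM (1.77 ± 0.37), and the elongases Elovl7 and Elovl3 went in opposite directions, at 2.76 ± 0.46 and -1.66 ± 0.37.

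Cholesterol synthesis, which dietary cholesterol normally represses, was near its control level, with a median of 0.09 over 25 genes. Here 5 rose and 2 fell, but the 5 were not stable: between 1 and 10 rose over the alternatives, and only 1 without control 493, control 503, HF/HS 521 or HF/HS 523. Males at 60 weeks were alike, with 1 higher and 2 lower (median -0.04). Of the 25, 0 differed between 40 and 60 weeks by the test of the difference (0.162% of all genes did). In contrast, 18 of the 25 fell and 0 rose in males at 20 weeks (median -0.71) and in females at 40 weeks (median -0.64). Of all genes, 14.5% fell in males at 20 weeks, 12.5% in males at 60 weeks and 13.3% in females at 40 weeks. By the tests of the difference, 7 of the 25 differed from males at 20 weeks (2.17% of all genes did) and 4 from females at 40 weeks (3.77%). The part of the time of day of collection in these differences was not tested.

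Bile acid synthesis had 7 of 17 genes lower and 1 higher, with 12 lower where only these 10 libraries entered the fit and 13 in limma voom with quality weights. The gene that rose was Cyp7a1, the rate-limiting enzyme of the classic pathway, at 58.7, 83.0, 109, 197 and 83.1 CPM in controls and 313, 270, 376, 243 and 358 CPM on the diet (1.56 ± 0.57, adjusted p = 0.0268). The groups did not overlap but control 502 came near, and the call was lost without control 492, 493 or 503 or HF/HS 521 (adjusted p = 0.0513 to 0.0733). Cyp7b1, of the alternative pathway, fell from 406 to 640 CPM to 165 to 255 CPM (-1.30 ± 0.34). Of 14 tested bile acid and organic anion transporters (15 listed) 5 rose and 5 fell (median 0.05). Of the export pumps among them, Abcb1a rose from 2.26 to 3.32 CPM to 13 to 17.9 CPM (2.41 ± 0.44), Abcc3 by 1.58 ± 0.30 and Abcc4 by 1.14 ± 0.27. Slc10a1, the sodium-dependent bile acid uptake carrier, fell by 0.61 ± 0.10 on the log2 scale.

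Many matrix genes rose. Of 23 collagens 15 rose and 5 fell, of 34 matrix glycoproteins and crosslinking enzymes 29 rose and 1 fell, and of the 23 tested of 24 matrix proteases and inhibitors 17 rose and 0 fell (1 or 2 fell under 14 alternatives, 2 with RLE size factors), with medians of 0.85, 1.23 and 1.31. The summed levels of the first pair of lists did not follow: collagens summed to 2056 to 2167 CPM in controls and 2068 to 2294 CPM on the diet, and the glycoprotein list to 4746 to 5260 CPM and then 4215 to 4737 CPM, whereas the proteases and inhibitors went from 427 to 477 CPM to 559 to 613 CPM. Col1a1, the main chain of fibrous collagen, read 11.8, 8.19, 21.8, 9.26 and 6.63 CPM in controls and 68.9, 84.9, 61.3, 100 and 78.9 CPM on the diet (2.78 ± 0.41, adjusted p = 1.03e-06). The diets were clearly apart, with control 501 the highest of the controls. Col3a1 rose by 2.36 ± 0.32, the proteoglycan Vcan by 2.45 ± 0.42, and the collagen crosslinker Lox by 2.37 ± 0.40. The collagens that fell were Col5a3, Col7a1, Col13a1, Col18a1 and Col27a1, although Col5a3 did not pass without control 492, 493 or 501 or HF/HS 521 (adjusted p = 0.0558 to 0.0867). Col18a1, which hepatocytes make, was lowered by 0.45 ± 0.06 on the log2 scale, and the single glycoprotein that fell was Fn1, fibronectin, which hepatocytes secrete into plasma (-0.39 ± 0.12).

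Genes of fibrotic signalling also rose. Of 25 TGF-beta, PDGF and CCN genes 15 rose and 0 fell. The ligand Tgfb2 was at 1.09, 0.376, 0.959, 1.0 and 1.02 CPM in controls and at 2.34, 3.11, 3.50, 4.09 and 4.74 CPM on the diet (1.98 ± 0.30, adjusted p = 1.38e-06). No control came near the HF/HS livers. Pdgfrb, the receptor on stellate cells, rose by 1.21 ± 0.17. Of 18 stellate cell and myofibroblast markers 8 rose and 0 fell (median 0.37; 13 rose with only these 10 libraries in the fit), their sum being 581 to 698 CPM in controls and 729 to 904 CPM on the diet. Lrat, which stores vitamin A in quiescent stellate cells, rose from 36.1 to 44.3 CPM to 61.5 to 72.3 CPM (0.76 ± 0.13). Acta2, the contractile actin of activated ones, did not pass (0.39 ± 0.21, adjusted p = 0.140), though it did in limma voom with quality weights (adjusted p = 0.0301) and with only these 10 libraries (adjusted p = 0.0101). The part of stellate cell number in the matrix genes was not tested.

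The matrix proteases rose from low levels. Mmp12, macrophage elastase, was at 3.28, 3.31, 16.7, 3.72 and 2.91 CPM in controls and at 38.2, 43.6, 39.8, 36.5 and 40.9 CPM on the diet (2.75 ± 0.47, adjusted p = 9.53e-06). Control 501 stood apart from the other controls, but still below every HF/HS liver. Mmp13, a collagenase, rose from 0.451 to 1.62 CPM to 3.77 to 5.62 CPM (2.32 ± 0.37), Mmp7, matrilysin, by 2.17 ± 0.42, and Timp1, an inhibitor of these proteases, by 2.25 ± 0.50. Plaur, the urokinase receptor, which focuses plasmin on the cell surface, rose by 1.62 ± 0.30. The stretch of 100 bases just before the start of these 4 genes is shown because each holds an exact AP-1 site, the motif bound by Fos and Jun proteins, and genes of that family rose too. Capitals mark the site (TGAGTCA or its reverse complement TGACTCA). Sequences are from RefSeq for build GRCm38.p6, the reference strain and not CC042, and run in the direction of the gene.
Mmp12, chr9:7347274-7347373, plus strand: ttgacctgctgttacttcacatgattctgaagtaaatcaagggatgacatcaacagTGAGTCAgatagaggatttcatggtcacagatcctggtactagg
Mmp13, chr9:7272414-7272513, plus strand: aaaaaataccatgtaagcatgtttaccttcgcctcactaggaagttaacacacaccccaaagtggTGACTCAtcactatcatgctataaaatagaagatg
Mmp7, chr9:7691990-7692089, plus strand: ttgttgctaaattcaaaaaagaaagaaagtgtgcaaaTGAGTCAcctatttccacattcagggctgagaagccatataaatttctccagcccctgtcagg
Plaur, chr7:24462383-24462482, plus strand: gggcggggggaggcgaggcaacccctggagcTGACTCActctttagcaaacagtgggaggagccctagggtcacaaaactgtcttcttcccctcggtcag

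The first base of the site lay 44 bases before the start in Mmp12, 35 in Mmp13, 63 in Mmp7 and 69 in Plaur. For Mmp12 and Mmp7 the table lists 2 starts, and the match lay before 1 of them. Of the 16 protease and inhibitor genes with a promoter entry, 5 had an AP-1 site within 250 bases before a start, namely these 4 and Mmp3. Over all 32851 promoter windows of that length the share was 4.46% (1466), both strands searched. This share is per window, whereas a gene counted if any of its listed starts had a match, so the units differ. A match describes letters in the reference and shows no binding. Immediate early genes, to which the AP-1 proteins belong, had 11 of 17 higher and 0 lower (median 1.19). Jun was at 21.5, 21.9, 30.9, 24.7 and 25.6 CPM in controls and at 51.1, 72.7, 79.7, 79.9 and 87.1 CPM on the diet (1.57 ± 0.27, adjusted p = 1.36e-05). Its groups did not overlap. Fos rose by 1.39 ± 0.39, the stress factor Atf3 by 2.50 ± 0.39 and Egr2, a zinc finger factor, by 2.77 ± 0.44.

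Macrophage genes rose as a whole list. All 16 general macrophage markers were higher, with a median of 1.5 and a sum of 337 to 510 CPM in controls and 852 to 1329 CPM on the diet. Of 18 markers of lipid-associated macrophages 15 rose and 0 fell (median 2.0), although without control 493, control 501 or HF/HS 512 1 fell. Gpnmb, a lysosomal membrane glycoprotein of such cells, read 2.99, 2.41, 14, 3.01 and 2.57 CPM in controls and 30.6, 37.1, 35.2, 32.9 and 35.2 CPM on the diet (2.79 ± 0.47, adjusted p = 1.02e-05). Control 501 was again far above the other controls, while the HF/HS livers were alike. The lipid receptor Trem2 rose by 2.38 ± 0.44, the integrin Itgax by 2.38 ± 0.37, and Spp1, osteopontin, from 17.2 to 22.6 CPM to 56.5 to 105 CPM (1.88 ± 0.26). Of 9 tested monocyte markers (10 listed) 8 rose and 1 fell. Their sum went the other way, at 379 to 439 CPM in controls and 316 to 373 CPM on the diet. Among monocyte genes, Ccr2, the receptor for Ccl2, rose by 1.94 ± 0.31 and Cx3cr1, the receptor for fractalkine, by 2.36 ± 0.36.

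Kupffer cells, the macrophages that settle in the liver before birth, were examined through their own markers. Of 11 markers 4 rose and 0 fell (without HF/HS 512, 1 fell), and 2 rose without control 493, control 501 or HF/HS 512. Clec4f, the most specific one, was at 62.1, 41.3, 46.8, 76.3 and 63.3 CPM in controls and at 112, 54.0, 63.9, 61.1 and 61.4 CPM on the diet (0.28 ± 0.23, adjusted p = 0.347). HF/HS 512 stood above the rest and the other diet livers lay inside the control range. Timd4, a receptor for dying cells on long-lived Kupffer cells, had the same shape (0.32 ± 0.35, adjusted p = 0.499), with 8.78 CPM in HF/HS 512. The sum of the 11 markers was 432 to 575 CPM in controls and 541 to 894 CPM on the diet. By the test of the difference, 4 of the 11 differed from females at 40 weeks (3.77% of all genes did), in whom 1 rose and 4 fell (15.0% and 13.3% of all genes).

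Genes of antigen presentation through MHC class II rose. Of 9 tested genes (10 listed) 8 rose and 0 fell, with a median of 1.93, and the tested genes summed to 139 to 279 CPM in controls and 572 to 932 CPM on the diet. H2-Aa, the alpha chain of the I-A molecule, was at 27.6, 23.2, 46.8, 28.1 and 29.8 CPM in controls and at 174, 122, 169, 111 and 134 CPM on the diet (2.19 ± 0.28, adjusted p = 8.41e-08). The ranges were far apart and control 501 was the highest control. H2-Eb1, the I-E beta chain, rose by 2.11 ± 0.26, and Ciita, the coactivator that class II genes depend on, from 2.18 to 6.19 CPM to 10.7 to 17 CPM (1.97 ± 0.28). Class II genes are near-identical in parts, the counting method is not stated, and CC042 alleles can differ from the reference, so the split between family members is uncertain. The promoter stretches of H2-Aa and H2-Eb1 are shown because both hold an exact Y box, the NF-Y element of class II promoters, given in capitals (CTGATTGG) and from the same RefSeq table.
H2-Aa, chr17:34287824-34287923, minus strand: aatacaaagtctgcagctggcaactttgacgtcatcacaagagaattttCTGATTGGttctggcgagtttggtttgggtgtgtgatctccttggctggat
H2-Eb1, chr17:34305767-34305866, plus strand: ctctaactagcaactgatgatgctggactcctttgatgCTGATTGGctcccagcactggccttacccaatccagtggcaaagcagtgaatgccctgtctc

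The Y box began 51 bases before the start in H2-Aa and 62 in H2-Eb1. Of the 7 class II genes with a promoter entry 3 held it before any listed start (these and H2-Oa). Per window, a different unit, the share was 3.83% of all 32851 (1258), both strands searched. Chemokines rose alongside, 17 of 22 tested (26 listed) with 0 lower and a median of 2.20. Where only these 10 libraries entered the fit, 10 of the 14 tested rose, with a median of 1.03. The sums of the 22 overlapped, at 475 to 632 CPM in controls and 603 to 719 CPM on the diet. Ccl2, which recruits monocytes, was at 0.438, 0.752, 1.77, 0.885 and 0.474 CPM in controls and at 3.84, 6.42, 8.39, 5.68 and 6.0 CPM on the diet (2.81 ± 0.41, adjusted p = 1.03e-06). The lowest HF/HS liver exceeded the highest control. Cxcl5, a neutrophil attractant, had 2 counts in all controls together and 56 on the diet, a ratio of 27.3 (95% interval 7.22 to 231, counting error only).

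Lymphocyte genes were scarce. Of 23 T and NK cell markers 11 had enough counts to be tested, of which 8 rose and 2 fell, and DESeq2, which tested more of them, called 13 of 20 higher, where only these 10 libraries in the fit gave 3 of 5. The natural killer receptor Ncr1 rose by 2.59 ± 0.68 and the cytokine receptor chain Il2rb by 2.46 ± 0.50. The pair that fell, Cd4 (-1.23 ± 0.40) and Zap70 (-1.21 ± 0.25), were 1.66 to 9.12 CPM and 1.80 to 6.16 CPM over the 10 livers. The 11 tested markers summed to 12.9 to 16.2 CPM in controls and 8.87 to 18.6 CPM on the diet. Interferon response genes had 15 of 25 higher and 0 lower (median 0.68), whereas 2 rose and 1 fell in females at 40 weeks (15.0% and 13.3% of all genes there), and 4 of the 25 differed between the sexes (3.77% of all genes did).

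Bile duct genes rose. Of 20 tested duct markers (21 listed) 17 rose and 0 fell, with a median of 1.94 and a sum of 117 to 125 CPM in controls and 199 to 300 CPM on the diet. The part of duct cell number was not tested. Elf3, an epithelial transcription factor, read 0.656, 0.752, 0.442, 0.885 and 0.338 CPM and then 4.42, 6.28, 6.79, 7.76 and 7.45 CPM (3.38 ± 0.49, adjusted p = 8.57e-07). All HF/HS livers were far above all controls. Cftr, the chloride channel of duct cells, rose from 0.295 to 0.413 CPM to 2.02 to 4.85 CPM (3.24 ± 0.49). The adhesion molecule Epcam rose by 2.21 ± 0.35 and the duct keratin Krt7 by 1.94 ± 0.37. Krt23, a keratin that damaged livers are known to express, did not separate the diets (0.00 ± 0.51, adjusted p = 0.995).

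Genes of fetal liver and liver tumours had 14 of 22 tested members (26 listed) higher and 1 lower. The imprinted RNA H19 was at 3.65, 4.06, 4.35, 3.54 and 3.79 CPM in controls and at 17.8, 27.2, 30.7, 58.0 and 39.4 CPM on the diet (3.16 ± 0.63, adjusted p = 1.02e-04). Controls were tight, and the HF/HS livers spread widely with animal 522 on top. Ly6d, a surface antigen, rose by 2.75 ± 0.64, while Afp, alpha-fetoprotein, stayed within the control range (0.04 ± 0.25, adjusted p = 0.911). Vascular endothelial markers rose in 11 of 12 tested cases (14 listed), with a sum of 103 to 117 CPM in controls and 160 to 179 CPM on the diet. Cd34, found on capillary and portal endothelium, rose from 2.77 to 4.2 CPM to 7.43 to 13.2 CPM (1.60 ± 0.27) and Vwf, the clotting factor of larger vessels, by 1.04 ± 0.30. Sinusoidal endothelial markers had 3 of 17 higher (17.6%, against 21.2% of all genes) and 1 lower (5.88%, against 15.2%), with a median of -0.03. Without control 492, 0 fell, and 2 fell without control 503 or HF/HS 512 or 522.

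**Figure D3:**
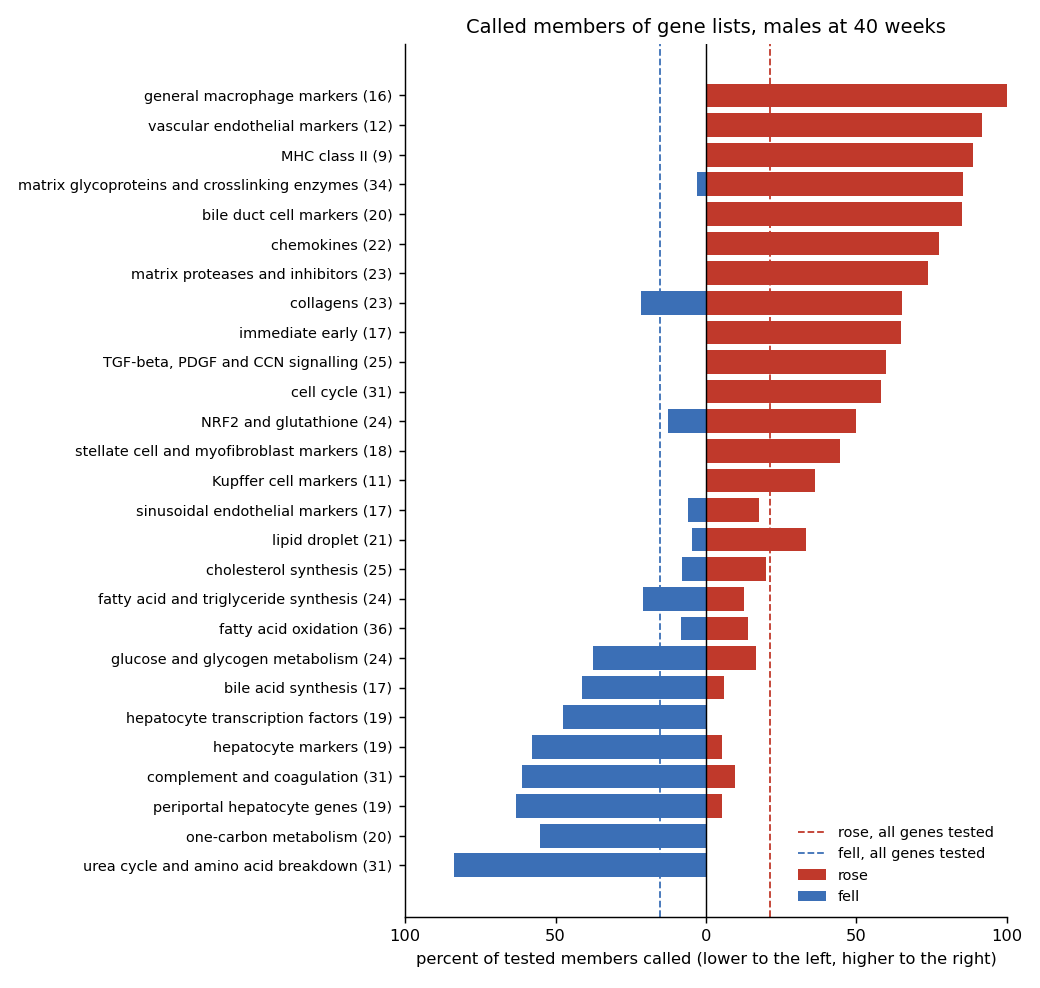
For each gene list, with its number of tested members in parentheses, the red bar is the percent of members that rose and the blue bar the percent that fell. Dashed lines mark the shares over all genes tested, 21.2% for rises and 15.2% for falls. Hepatocyte lists extend to the left, and matrix, immune, duct and endothelial lists to the right.

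Among stress genes, changes ran both ways. Of 24 tested NRF2 and glutathione genes (25 listed) 12 rose and 3 fell, but 6 rose once controls 501 and 502 and HF/HS 512 were left out. Nqo1, a quinone reductase and a classic NRF2 target, was at 3.79, 2.56, 3.02, 2.65 and 2.30 CPM in controls and at 13.8, 6.15, 6.35, 7.28 and 6.13 CPM on the diet (1.47 ± 0.27, adjusted p = 3.23e-05). HF/HS 512 was highest and all diet livers exceeded the controls. Slc7a11, the cystine importer, rose by 2.70 ± 0.50. Of 18 genes of endoplasmic reticulum stress and the amino acid response, 9 fell and 1, Atf3, rose. Those that fell included Creld2 (-1.19 ± 0.28) and Hspa5, the main chaperone of the endoplasmic reticulum (-0.70 ± 0.16). Of 31 cell cycle genes 18 rose and 0 fell (11 rose without those 3 libraries). Mki67, a marker of dividing cells, rose from 3.45 to 7.6 CPM to 12.2 to 28.7 CPM (1.82 ± 0.47), Top2a by 1.73 ± 0.42 and Ccnd1, cyclin D1, by 1.78 ± 0.39.

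Genes that differ between the sexes moved in opposite directions by class. Male-biased genes were defined from control livers at 20 and 60 weeks only, so no 40-week library chose them. Of 205 such genes 83 fell and 25 rose in males at 40 weeks (median -0.45), and of 235 female-biased genes 80 rose and 16 fell (median 0.55), against 15.2% lower and 21.2% higher over all genes. Mup21, a major urinary protein, was at 811, 908, 778, 753 and 913 CPM in controls and at 300, 271, 232, 189 and 210 CPM on the diet (-1.79 ± 0.32, adjusted p = 1.81e-05). Every diet liver was far below every control. Hsd3b5, a steroid dehydrogenase of male liver, fell from 193 to 405 CPM to 40.8 to 96.8 CPM (-2.09 ± 0.56) and Susd4, a complement regulator, from 27.2 to 46.0 CPM to 9.77 to 15.2 CPM (-1.64 ± 0.28). Stat5b, which carries the growth hormone pulse to male genes, fell slightly (-0.27 ± 0.07).

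Female-biased genes rose unevenly. The peroxisomal transporter Abcd2 was at 2.99, 2.48, 5.01, 3.95 and 3.05 CPM in controls and at 14.5, 20.3, 23.4, 26.3 and 21.5 CPM on the diet (2.59 ± 0.39, adjusted p = 1.56e-06). This was a clear separation, still far from the female controls at 134 ± 22.3 CPM (SD, n = 5). Slc22a27, an organic anion transporter, rose by 2.54 ± 0.49 and Cyp2a4, a steroid hydroxylase, from 34.8 to 61.1 CPM to 140 to 328 CPM (2.13 ± 0.49). Of 27 tested textbook female-biased genes (30 listed) 7 rose (25.9%, near the 21.2% of all genes) and 3 fell (11.1%, against 15.2%), with a median of 0.45. Among those that fell were Cyp2c40, by 2.09 ± 0.35, and Cyp2c69, by 2.30 ± 0.46 on the log2 scale. The Mup, Cyp2a, Cyp2c, Cyp3a and Slc22a families hold near-identical copies, so the values of single members are uncertain. In females the counts were the other way round: 67 of the 205 male-biased genes rose and 19 fell (median 0.33), and 72 of the 235 female-biased genes fell and 25 rose (median -0.38). Of all genes, 15.0% rose and 13.3% fell in females at 40 weeks. The 24 textbook male-biased genes did not share this reversal: 16 fell and 0 rose in males at 40 weeks, and 7 fell and 2 rose in females (median -0.50). The diet effect differed between the sexes in 47 male-biased genes (22.9%), each time lower in males, and in 41 female-biased genes (17.4%), each time higher in males, against 3.77% of all genes.

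**Figure D4:**
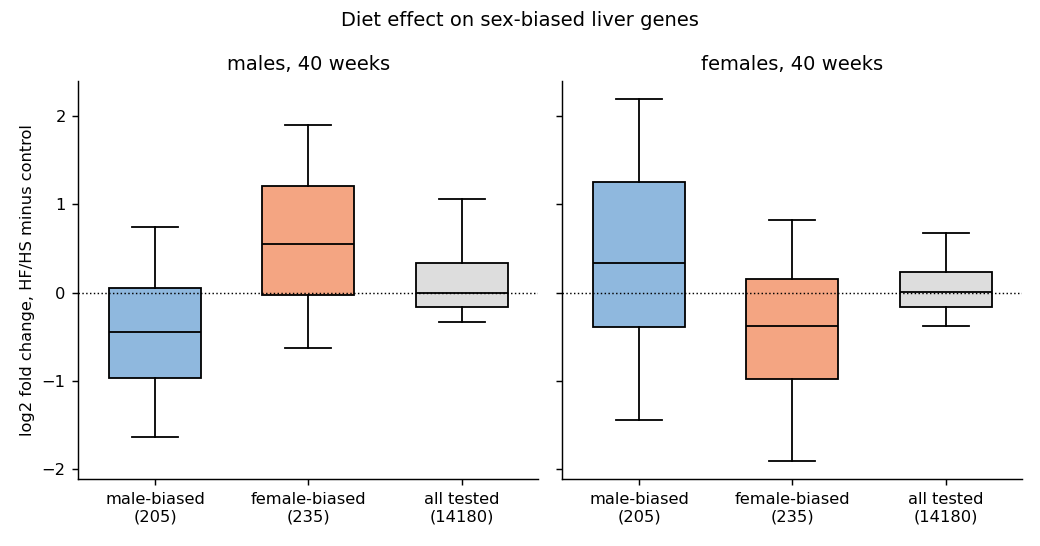
Boxes give the middle 50% of log2 fold changes of HF/HS minus control, with the median as a line and whiskers from the 10th to the 90th percentile, for 205 male-biased, 235 female-biased and all 14180 genes. In males at 40 weeks (left) the male-biased median is -0.45 and the female-biased median 0.55, and in females (right) they are 0.33 and -0.38.

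Many of the changes were shared with other times and with females. Of the 5162 genes called, 2318 were called the same way in males at 20 weeks (44.9% of these and 56.6% of the 4096 called there, 28.9% of genes), 2526 at 60 weeks (48.9% and 63.6% of 3974, 28.0%, with 15.5% of genes higher there), and 2258 in females at 40 weeks (43.7% and 56.2% of 4017, 28.3%). Opposite calls numbered 41, 8 and 36. No libraries are shared between these comparisons. Arntl, a circadian clock gene, had a mean of 11.1 CPM in controls and 6.71 CPM on the diet in males at 40 weeks. Its control and HF/HS means were 49.4 and 36.2 CPM in males at 20 weeks and 53.9 and 48.4 CPM at 60 weeks. In females at 40 weeks they were 60.4 and 33.7 CPM. The part of the time of day of collection in these comparisons was not tested. The diet effect differed from that at 20 weeks in 308 genes (2.17%; 186 higher at 40 weeks, 1.31%, and 122 lower, 0.860%). It differed from that at 60 weeks in 23 (0.162%; 13 higher, 0.0917%, and 10 lower, 0.0705%). From that in females it differed in 534 (3.77%; 319 higher in males, 2.25%, and 215 lower, 1.52%). These counts were sensitive: leaving out single libraries gave 140 (without control 493) to 581 (without 20-week control 182), 12 (without HF/HS 513 or 60-week control 11) to 63 (without 60-week control 23), and 260 (without female control 461) to 656 (without female control 453).

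Against 20 weeks, the differences ran in both directions. Tiam1 had not passed the test at 20 weeks (-0.42 ± 0.30, adjusted p = 0.305), where controls were at 12.8 ± 8.96 CPM, and its difference was -2.06 ± 0.42 (adjusted p = 0.00520). Myc, a growth regulator, fell at 20 weeks (-1.61 ± 0.31) and rose at 40 (1.05 ± 0.33), with a difference of 2.66 ± 0.45 (adjusted p = 0.00102), the 20-week controls being at 30.3 ± 25.4 CPM. Gpnmb rose more at 20 weeks (8.0 ± 0.81) than at 40, by -5.21 ± 1.11 as a difference (adjusted p = 0.00727, or 0.254 in limma voom). The HF/HS levels were close, 32.8 ± 4.29 CPM at 20 weeks and 30.6 to 37.1 CPM at 40, and the controls were at 0.123 ± 0.0732 CPM at 20 weeks.

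Against 60 weeks, Ddah1 was the clearest case. Its effect was 2.68 ± 0.28 at 40 weeks and 0.65 ± 0.26 at 60 weeks (adjusted p = 0.0573), a difference of 2.03 ± 0.38 (adjusted p = 0.00687). The 60-week controls were at 122 ± 66.0 CPM (SD, n = 5) and the 60-week HF/HS livers at 192 ± 61.3 CPM. Cyp2a5, which hydroxylates coumarin and nicotine, rose at 40 weeks from 72.0 to 93.1 CPM to 114 to 552 CPM (1.54 ± 0.33) and fell at 60 weeks (-1.07 ± 0.33), a difference of 2.61 ± 0.47 (adjusted p = 0.00606). Animal 512 held the highest value, and without it the 40-week effect was 0.90. The difference was lost when controls 501 and 502 and HF/HS 512 were left out (1.90, adjusted p = 0.109).

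Against females at 40 weeks, a wide gap was found in Cyp3a11, a drug-metabolising P450. In males it was at 401, 422, 701, 417 and 411 CPM in controls and at 1492, 1608, 1911, 1781 and 1789 CPM on the diet (1.87 ± 0.44). In females it went from 3.80 ± 2.58 to 550 ± 368 CPM (7.15 ± 0.59), a difference of -5.29 ± 0.69 (adjusted p = 1.10e-06). The rise was thus larger in females on the log2 scale, though their HF/HS mean stayed below the lowest HF/HS male. Scd2 also rose more in females, from 13.8 ± 3.39 to 372 ± 134 CPM (difference -2.98 ± 0.53, adjusted p = 4.11e-04). Abcd2, which rose in males, was at -0.09 ± 0.31 in females (difference 2.68 ± 0.50, adjusted p = 8.26e-04), and Ddah1 rose by 0.86 ± 0.26 in females (difference 1.82 ± 0.38, adjusted p = 0.00320). Limk1 did not pass in females (0.50 ± 0.22, adjusted p = 0.0907, difference 1.61 ± 0.31, adjusted p = 0.00190). Of the 16 general macrophage markers, 1 rose in females at 40 weeks (15.0% of all genes did; median 0.40), and 2 differed between the sexes by the test of the difference (3.77% of all genes).

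**Figure D5:**
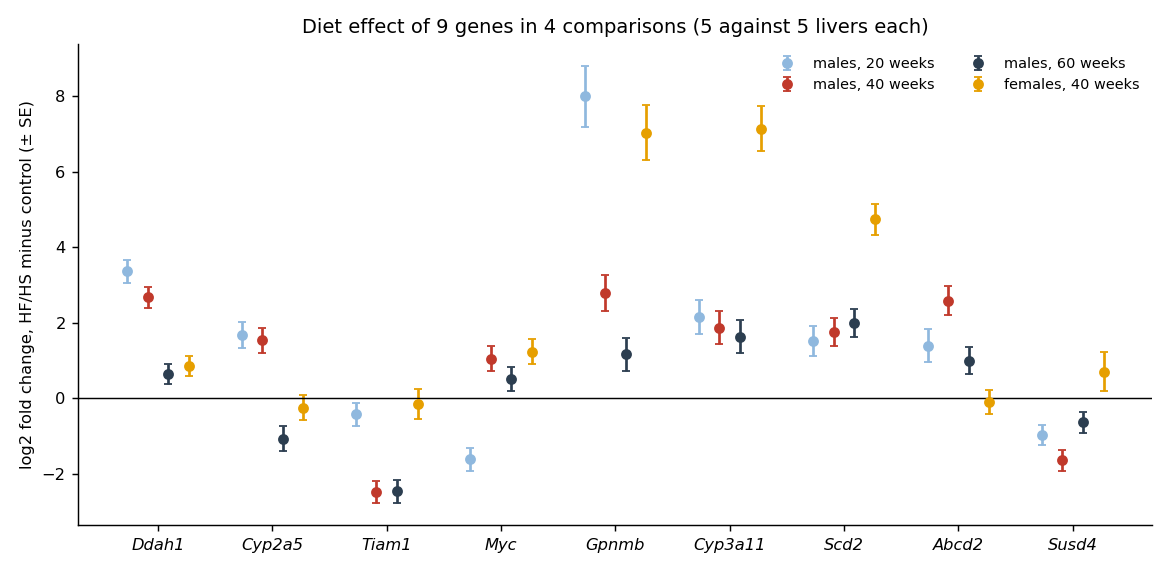
Log2 fold changes of HF/HS minus control ± standard error for 9 genes, in males at 20 weeks (light blue), 40 weeks (red) and 60 weeks (dark) and in females at 40 weeks (orange), 5 livers against 5 each. Cyp3a11 stands at 7.15 in females against 1.87 in males at 40 weeks, and Tiam1 is at -2.48 and -2.46 in males at 40 and 60 weeks but -0.42 at 20 weeks.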

How the data were processed

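Liver libraries were grouped by sex, diet and weeks from their labels. The authors deposited 1 table of raw, whole-number counts, with gene symbols as rows and animals as columns. Reads were mapped to mm10 (submitters' processing notes). The sources used here do not name the aligner, counter, annotation or strand setting. Stranded libraries were made after depletion of ribosomal RNA, per the labels' protocols. Of 24982 entries, 4778 had no count, 26 had symbols spoiled into dates (0.201% of counts, kept but not named) and 0 were mitochondrial.

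All 60 libraries entered 1 edgeR 4.0.16 quasi-likelihood model of 12 group means (R 4.3.3, TMM scaling, filterByExpr with minimum count 10 and total 15). Contrasts gave the diet effect and its differences between times and sexes, with Benjamini-Hochberg adjustment over all genes and a threshold of 0.05. Positions are those of GENCODE M21 by symbol. On simulated counts for 13937 genes with 199 changed, the model called 169, 4 of which had not been changed. It recovered 69.7% of 1.5-fold, 80.6% of 2-fold and 98.5% of 4-fold changes. Its performance with a share of changed genes near the 36.4% called in males at 40 weeks was not tested.

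The groups, lists, naming rule and tests were chosen with earlier results of these data known. The naming rule took the 12 highest and 12 lowest changes and the 10 lowest p-values among called genes. For these, CPM ranges that do not overlap, a mean of at least 1 CPM and a settled symbol were required. It also took up to 5 called members of each of 64 lists and a panel of 23 genes. Up to 6 genes each way were taken for each difference and 6 for each sex-biased class. Mmp3, Mmp7, Plaur, Fos, Jun, Fn1, Slc10a1, Krt7, Cd3e, Cd4, Zap70, Clec4f, Timd4, H2-Oa and the collagens that fell were named after their values were seen. Male-biased (female-biased) genes were higher (lower) in male than in female controls with a log2 difference of at least 1 at both 20 and 60 weeks, sex chromosomes left out.

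Alternatives were RLE size factors, DESeq2 1.42.0, limma 3.58.1 voom with quality weights, no filter, small RNA genes removed before scaling, the comparison's own libraries only, and leaving out each library. Leaving out controls 501 and 502 and HF/HS 512 together was added after the data were seen. A count of at most 3 over a group was given as a ratio with an exact 95% interval. Some results are not reported here.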

Additional observations from a re-analysis of the deposited data

Results flagged for a closer look

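A library stood far from the other 4 of its diet in 25 of the 238 groups of 5 examined (10.5%), and chance alone gives about 1 in 20. Many of these values came from control 501, which was high among controls for macrophage, antigen presentation and matrix genes: Gpnmb 14 CPM, Mmp12 16.7 CPM, Itgax 4.13 CPM, Ccr2 9.22 CPM, Cx3cr1 3.24 CPM, H2-Aa 46.8 CPM, H2-Eb1 42.2 CPM and Timp1 0.442 CPM. It was also high for Cyp3a11 (701 CPM), Mogat1 (6.64 CPM) and Slc7a11 (0.885 CPM). HF/HS 512 was high for the Kupffer cell genes Clec4f (112 CPM) and Timd4 (8.78 CPM), and for Cyp2a5 (552 CPM), Nqo1 (13.8 CPM), Ubd (24.1 CPM), Il2rb (3.58 CPM), Hnf4a (838 CPM) and Sult5a1 (3.90 CPM). HF/HS 522 was high for the lipid droplet genes Cidea (25.9 CPM) and Plin2 (707 CPM) and for Abcb1a (17.9 CPM). Control 503 was high for Cyp2c40 (49.9 CPM) and Cyp2c69 (31.9 CPM), and control 493 was low for Tgfb2 (0.376 CPM).

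By the edgeR test of the difference itself, the diet effect of these genes was not the same in another group. Between 40 and 20 weeks in males the differences were -5.21 for Gpnmb, -2.06 for Tiam1 and 2.66 for Myc on the log2 scale. Between 40 and 60 weeks they were 2.03 for Ddah1 and 2.61 for Cyp2a5. Between males and females at 40 weeks they were -5.29 for Cyp3a11, -2.98 for Scd2, 2.68 for Abcd2, 1.82 for Ddah1 and 1.61 for Limk1.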

How the results depend on the processing

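The count of genes called for the diet at 40 weeks in males, 5162, stayed within 1.5 times under each alternative run, as did the counts of sex-biased genes. The differences of the diet effect depended more on the processing. Between 40 and 20 weeks 308 genes were called, 201 with no filter on low counts, 839 in limma voom with quality weights, 191 without controls 501 and 502 and HF/HS 512, and 140 to 581 when single libraries were left out. Between 40 and 60 weeks 23 were called, 210 with only the comparison's own libraries, 778 in limma voom, 64 in DESeq2, 3 without those 3 libraries, and 12 to 63 without single ones. Between the sexes 534 were called, 2409 with only the comparison's own libraries, 2918 in limma voom, 218 without those 3 libraries, and 260 to 656 without single ones. The cause was not tested. Over 129 results for named genes and 2288 alternatives, 14 lost the call and 4 gained it, and 120 of the 129 kept their side of the threshold throughout. Where the main fit or the alternative called the gene, 0 changed direction. Some genes called in neither changed sign, such as Timd4 (0.32, and as low as -0.29) and Plin2 (0.01, and as low as -0.11). Losses fell on Cd3e, Col5a3, Cyp2a5, Cyp7a1 and Myc at 40 weeks and on the differences of Cyp2a5 and Gpnmb. Over 1258 alternatives of list counts, 82 moved by more than 1.5 times. Low counts limit lymphocyte genes and chemokines in particular. No paired analysis was possible because each library carries an animal number of its own.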
